A study of Mus musculus with 9 samples.

Results

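Cells labelled OMVSSDC were compared with cells labelled PBSDC, both of the mouse line DC2.4, by sequencing of total RNA. Each group had 3 libraries, so 6 of the 9 libraries of the series entered the comparison. The remaining libraries, labelled ZJDC, entered only the scaling of the libraries and the estimate of the spread. A gene was included when it had 10 or more counts in at least 3 of the 6 libraries, which held for 11440 of the 21959 genes in the deposited table. No measured difference was used to choose libraries. The minimum of counts did not look at the groups, but a gene low in either group could pass through the other alone. For such genes, among them Vnn3, Srms, Slfn1, Inhba, Lif, Fzd4 and Klf12, passing largely set the direction. Those that belong to a list are counted among its members below.

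DC2.4 is an established dendritic cell line that grows in culture. The series text names engineered vesicles, EMV@SS, as what was given to these cells, with an interest in immune genes. The labels do not tie that name to OMVSSDC, and they give no dose, time or passage for either group. PBS usually stands for phosphate-buffered saline, so PBSDC was taken as the reference. OMVSSDC libraries are called treated below for short, though the labels do not state what these cells were given. Both groups share the cell line, and the labels record no genetic change in either. The labels do not say whether replicates were separate cultures, and the p-values may then measure technical spread alone. In bulk RNA, more cells expressing a gene and more RNA per cell cannot be told apart.

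The 6 libraries held between 13037337 and 17770675 counts, and between 13858 and 14358 genes had a count in a library. Levels are given as CPM, the usual measure of counts relative to a fixed library total, after scaling of the libraries. A gene without a count can have a level of up to 0.169 to 0.230 CPM, which is what 3 counts amount to in these libraries, counting error only. Markers of dendritic and myeloid cells summed to 7282 to 7461 CPM in OMVSSDC and 6825 to 7019 CPM in PBSDC, and 24 of these 26 genes reached 3 counts in a library. Ptprc, the leukocyte surface phosphatase, had 10715 to 15586 counts per library. Defining genes of conventional and plasmacytoid dendritic cells were near 0: Xcr1 had 2 to 10 counts, and Flt3, Clec9a, H2-Aa and Siglech had at most 4 in any library. Zbtb46, Batf3 and Itgax, which also mark conventional dendritic cells, had 23 to 167 counts. General leukocyte and myeloid markers were therefore well expressed, while several defining dendritic markers were low or nearly absent.

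OMVSSDC replicate 3 stood apart from replicates 1 and 2. Replicates 1 and 2 differed from each other by a median of 0.07 on the log2 scale, with 15 genes over 2-fold apart. Replicate 3 differed from them by 0.28 to 0.30, with 352 to 396 genes over 2-fold apart. PBSDC libraries differed among themselves by 0.09, with 31 to 43 such genes. Every OMVSSDC library lay farther from PBSDC than from its own group, with median differences from PBSDC of 0.43 to 0.45 for replicate 3 and 0.50 to 0.51 for replicates 1 and 2. For this reason values are given for each library, and results that rest on 1 library are also given without it. Fits with replicate 3 as the only OMVSSDC library take the spread from the other groups. Calls in such fits cannot measure the spread among treated libraries.

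As background, dendritic cells sense microbes and damage through pattern receptors and then change from a sampling to a signalling state. That change is known to involve secreted ligands, cytokine receptors, a new balance of metabolism, and in cycling cells a slower cell cycle. Cytokine genes switched on by the transcription factor NF-kB are the best known part of it. Complement C1q, clock genes, nuclear transport and DNA repair are less often described.

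Of the 11440 genes, 7315 (63.9%) passed at an adjusted p under 0.05 in edgeR's quasi-likelihood test, 3847 (33.6%) higher and 3468 (30.3%) lower in OMVSSDC. The groups did not overlap for 7566 genes (66.1%), and the median log2 fold change over all genes was 0.04. No overlap was also required of the list genes chosen by rule and of the largest rises and falls below. It is therefore no support for them. Differences over 2-fold were called for 1456 genes (12.7%) higher and 780 (6.82%) lower. Log2 fold changes given alone below had SEs between 0.053 and 0.717 over the called genes named, and the highest adjusted p among those genes was 0.0423. Counts of list members below are to be read against 33.6% higher and 30.3% lower. In total 35 lists of genes were described by their counts and medians, with no test of a list as a whole. They held 1068 entries, of which 836 passed the minimum of counts and are called measured below.

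**Figure D1:**
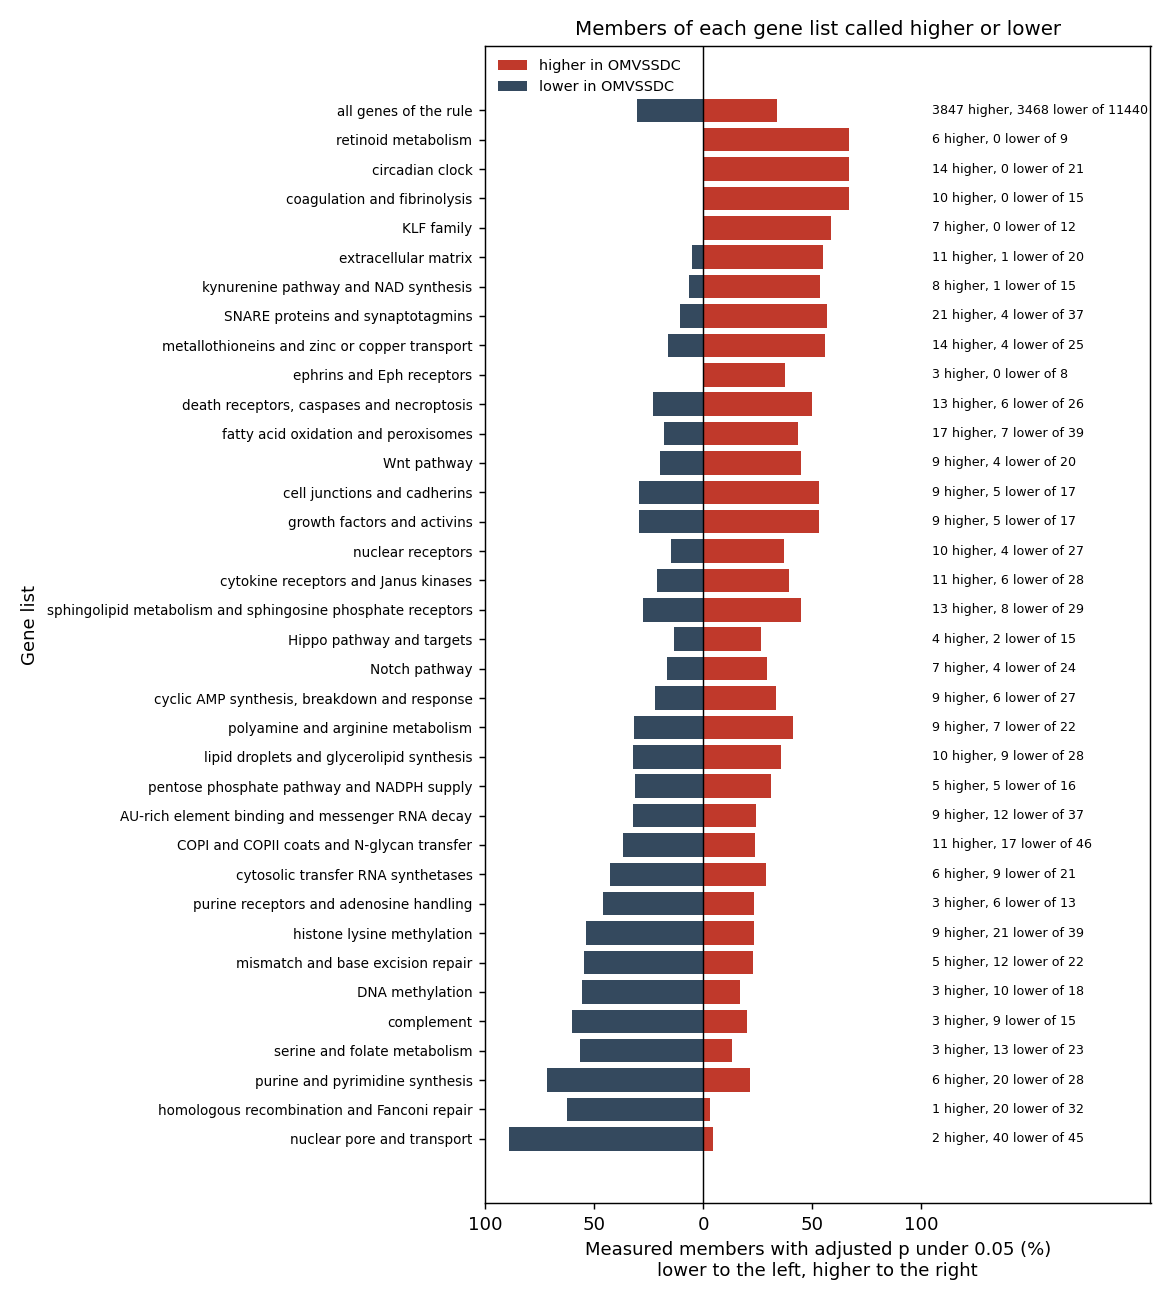
Horizontal bars show, for each of 35 gene lists and for all 11440 genes (top), the percentage of measured members with an adjusted p under 0.05, lower in OMVSSDC to the left (dark blue) and higher to the right (red). Nuclear pore and transport genes, with 40 lower and 2 higher of 45, form the longest bar to the left, while the clock, coagulation, retinoid, KLF and ephrin lists have bars to the right only.

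Genes are ranked here among those with a mean of at least 5 CPM, no overlap between groups and no earlier description from these data. Under these limits, the largest rises started from very low levels in PBSDC. Below that mean a gene could rise as much, such as Inhba (4.95), given below. Vnn3, a member of the vanin family of pantetheine-splitting enzymes (ENSMUSG00000020010, on chromosome 10), stood at 13.1, 12.2 and 12.1 CPM in OMVSSDC replicates 1, 2 and 3 and at 0.294, 0.548 and 0.51 CPM in the PBSDC replicates, an order kept below. All 3 treated libraries were alike and lay far above the reference, at 4.79 in log2 fold change (SE 0.19, adjusted p = 4.71e-08). Vnn3, like Slfn1 and Srms below, needed the OMVSSDC libraries to meet the minimum of counts, which largely set the direction. Krt23, a type I keratin, reached 33.0, 40.7 and 30.2 CPM from 1.53, 0.958 and 1.68 CPM. Nos1, the neuronal form of nitric oxide synthase, rose from 1.18, 0.89 and 1.31 to 20.1, 15.3 and 20.4 CPM. Slfn1, a Schlafen gene tied to the arrest of T cell growth, rose from 0.294, 0.753 and 1.09 to 12.5, 10.9 and 10.4 CPM. The log2 fold changes of Krt23, Nos1 and Slfn1 were 4.63, 4.03 and 4.01 (SE 0.19, 0.18 and 0.30). Slfn1 has close relatives in the genome, and how reads shared by relatives were assigned is not stated.

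The 250 bases before the start of 3 of these genes are printed because each held a match to the kappa-B motif, the site bound by NF-kB. The sequences are from RefSeq on GRCm38.p6, written 5′ to 3′ on the strand of the gene, and capitals mark the match. Krt23 (chr11:99493121-99493370, minus strand) had it 53 bases before the start and read on the opposite strand, Slfn1 (chr11:83116570-83116819, plus strand) 43 bases and Nos1 (chr5:117866589-117866838, plus strand) 90 bases before the start.
Krt23: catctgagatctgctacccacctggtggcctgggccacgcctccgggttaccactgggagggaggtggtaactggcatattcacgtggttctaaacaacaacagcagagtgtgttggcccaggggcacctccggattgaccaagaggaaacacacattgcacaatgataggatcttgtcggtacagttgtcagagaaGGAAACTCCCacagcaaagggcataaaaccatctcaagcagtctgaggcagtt
Slfn1: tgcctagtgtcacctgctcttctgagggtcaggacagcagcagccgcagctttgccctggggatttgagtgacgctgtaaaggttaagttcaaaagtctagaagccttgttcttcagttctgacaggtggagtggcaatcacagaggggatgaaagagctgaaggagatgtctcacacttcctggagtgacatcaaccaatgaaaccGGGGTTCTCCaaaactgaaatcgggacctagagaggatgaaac
Nos1: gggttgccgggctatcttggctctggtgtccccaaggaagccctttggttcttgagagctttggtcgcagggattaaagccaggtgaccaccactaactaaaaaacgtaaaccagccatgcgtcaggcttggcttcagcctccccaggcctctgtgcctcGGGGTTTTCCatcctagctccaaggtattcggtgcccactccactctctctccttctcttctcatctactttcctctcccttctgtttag

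Of the 8 largest rises 7 matched a promoter window, and 3 of those held the motif on either strand, while 0 of 6 matched windows of the 8 largest falls did. The motif was in 4.46% of all 27025 genes with a window and in 5.44% of the 9162 genes of the comparison that matched. Other motifs searched were uneven too. The D-box, TTATGNAA, was in 3 of 6 windows of the falls and 1 of 7 of the rises, against 2.26% of the genes of the comparison. The E-box, CACGTG, was in 2 of 7 windows of the rises, the printed Krt23 window among them, and 0 of 6 of the falls, against 10.1%. None of the printed matches overlapped another motif searched. The motifs and windows to print were chosen after the matches were seen, and a match describes letters only.

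The other large rises were in Srms, Phyhd1, Angptl6 and Fam171b. Angptl6, a secreted angiopoietin-like protein, rose from 2.77, 2.60 and 3.21 to 63.0, 57.6 and 31.7 CPM, so replicate 3 was the lowest of the treated libraries and still far above the reference. Srms, a non-receptor tyrosine kinase, showed the same order, with 12.5, 10.7 and 5.83 CPM in OMVSSDC against 0.294, 0.548 and 0.802 CPM. In Fam171b, which encodes a membrane protein, replicate 3 was instead the highest, at 40.9 CPM. Phyhd1, an enzyme of the phytanoyl-CoA dioxygenase family, rose by 4.16 on the log2 scale.

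The largest falls under the same limits included several surface receptors of myeloid cells. Clec12a, an inhibitory C-type lectin receptor, fell from 78.6, 79.5 and 83.1 to 9.17, 10.2 and 12.3 CPM. Clec4a2, another inhibitory lectin, fell from 35.6, 36.2 and 36.7 to 6.13, 5.82 and 4.74 CPM. The lectins had log2 fold changes of -2.93 (SE 0.12, adjusted p = 4.54e-08) and -2.70 (SE 0.16). Fcrls, a scavenger-type Fc receptor-like gene known from microglia, fell from 18.5, 20.4 and 21.8 to 3.39, 3.64 and 1.56 CPM, and Cd300lg fell by 2.71 on the log2 scale. Tgfbi, a matrix protein induced by TGF-beta, stood at 9.17, 7.44 and 8.67 CPM against 56.9, 61.2 and 54.5 CPM in PBSDC. Hsd11b1, which activates glucocorticoids inside cells, was nearly flat within each group, at 1.52, 1.57 and 1.83 and 13.9, 13.8 and 13.5 CPM. Ank2, a linker of membrane proteins to the cytoskeleton, fell by 3.13, and replicate 3 was its highest treated library. Its log2 fold change was -3.82 without OMVSSDC replicate 3 and -2.29 with replicate 3 alone. The remaining gene of the 8 was mt-Nd4, given below with replicate 3. Clec4a2 has close relatives, so its counts are as uncertain as those of Slfn1.

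**Figure D2:**
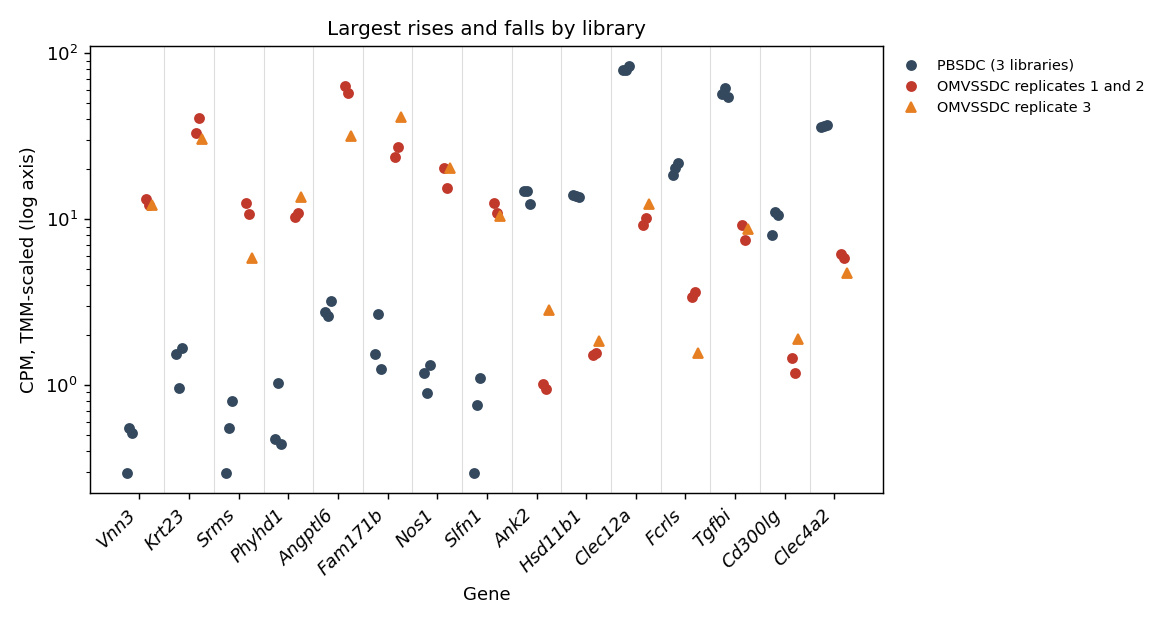
Points give CPM on a log axis for each library of the genes with the largest rises (left 8) and falls (right 7). The genes were ranked under the limits given in the text. PBSDC is in dark blue, OMVSSDC replicates 1 and 2 in red and OMVSSDC replicate 3 as an orange triangle. Separate groups were one of these limits, so in each of these 15 genes replicate 3 lies on the side of replicates 1 and 2.

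Secreted growth factors changed in both directions. Of 34 listed genes 17 were measured, and 9 rose and 5 fell, with a median log2 fold change of 0.53 against 0.04 over all genes. Pdgfa, a ligand of platelet-derived growth factor receptors, stood at 11.7, 12.6 and 21.6 CPM in OMVSSDC and 3.59, 2.81 and 3.28 CPM in PBSDC. Replicate 3 was the highest (log2 fold change 2.24, SE 0.25, adjusted p = 3.17e-05). Osm, the interleukin-6 family cytokine oncostatin M, stood at 35.5 ± 4.88 CPM against 8.65 ± 1.27 CPM in the reference (mean ± SD over the 3 libraries, as for all values written with ±). It rose by 2.04 (SE 0.14).

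Among further examples, which throughout the text were chosen after their values were seen, Inhba, the subunit of activin A, had 57, 103 and 106 counts against 3, 3 and 2 in PBSDC. That was a log2 fold change of 4.95 (SE 0.38), the largest of the list, at a low level. Gdf15, a stress-induced member of the TGF-beta superfamily, rose by 1.81 and Lif, a relative of Osm, by 2.75 (1.87 with replicate 3 as the only OMVSSDC library). Angptl4, an inhibitor of lipoprotein lipase, fell from 11.8, 12.9 and 11.2 to 3.68, 4.08 and 4.40 CPM. Igf1, insulin-like growth factor, and Fgf7 fell by 1.73 and 2.35 from 6.30 ± 0.72 and 3.11 ± 0.597 CPM.

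Among cytokine receptors and Janus kinases, 11 of 28 measured genes rose and 6 fell, a share close to that of all genes. Il7r, the alpha chain of the interleukin-7 receptor, stood at 67.6, 68.3 and 96.3 CPM in OMVSSDC against 15.1, 16.3 and 18.7 CPM. Il6ra, which binds interleukin-6, moved the other way, from 89.2, 94.8 and 85.7 to 28.9, 29.6 and 35.6 CPM. The log2 fold changes were 2.21 (SE 0.15) and -1.52 (SE 0.10). Jak2, a kinase that acts below many of these receptors, rose from 52.2 ± 2.31 to 148 ± 13.5 CPM, and Il15ra, which presents interleukin-15, by 1.38. Lifr, the receptor for Lif, fell by 2.11.

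Purine receptors and adenosine handling showed 3 genes higher and 6 lower of 13. P2ry1, a receptor for ADP, rose from 3.59, 3.15 and 2.26 to 7.79, 8.84 and 8.33 CPM. Adk, the kinase that removes adenosine, fell from 40.6, 34.6 and 41.1 to 18.8, 16.7 and 19.4 CPM (log2 fold change -1.08, SE 0.098). P2ry12, another ADP receptor, fell by 1.97 from 2.61 ± 0.196 CPM.

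In the cyclic AMP group 9 of 27 genes rose and 6 fell, near the shares of all genes. Pde10a, a phosphodiesterase that breaks down cyclic nucleotides, stood at 96.9, 87.9 and 95.9 CPM against 38.5, 38.7 and 36.7 CPM, with little spread. Its log2 fold change was 1.30 (SE 0.066, adjusted p = 1.56e-07). Pde4c, a phosphodiesterase specific for cyclic AMP, rose by 2.98 at 6.15 ± 0.33 CPM. Crem, a transcription factor of the cyclic AMP response, rose by 1.17. Prkar2a, a regulatory subunit of protein kinase A, fell from 336 ± 5.64 to 155 ± 12.98 CPM. Without OMVSSDC replicate 3, 10 genes of this list were lower.

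Of 20 measured Wnt pathway genes 9 rose and 4 fell, or 7 lower without OMVSSDC replicate 3. Wnt6, a secreted ligand, stood at 145, 135 and 68.5 CPM against 28.1, 32.4 and 29.5 CPM. Replicate 3 was at about the midpoint between the other treated libraries and PBSDC on the log scale, and the log2 fold change of 1.95 became 1.19 with replicate 3 as the only OMVSSDC library. Fzd5, a Frizzled receptor, rose from 5.12, 6.84 and 7.07 to 29.6, 30.1 and 24.9 CPM, and Fzd4 by 3.50 from 0.233 ± 0.145 CPM. Lrp5, a co-receptor, fell by 0.74, and Gsk3b, a kinase that marks beta-catenin for destruction, rose by 0.82. Tcf7l2, a transcription factor at the end of the pathway, fell from 12.2, 10.3 and 11.6 to 2.02, 3.80 and 6.57 CPM (-0.80 with replicate 3 alone).

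Notch genes stood at 7 higher and 4 lower of 24. Dtx3, a Deltex ubiquitin ligase, rose from 15.5, 14.03 and 14.8 to 51.7, 49.2 and 40.1 CPM. Maml3, a coactivator of Notch, rose by 1.22, and Jag1, a ligand, by 0.72. Lfng, the Fringe glycosyltransferase that tunes Notch receptors, fell by 1.09. In the Hippo pathway, which limits growth through the kinase Stk4, 4 of 15 genes rose and 2 fell, and 4 fell without OMVSSDC replicate 3. Ptpn14, a phosphatase that restrains the coactivator YAP, stood at 171, 174 and 147 CPM against 29.1, 26.3 and 24.3 CPM (log2 fold change 2.62, SE 0.090, adjusted p = 2.13e-08). Amotl1 rose by 0.95 and Stk4 fell by 0.82. The YAP gene Yap1, its relative Wwtr1 and the target genes Ccn1, Ccn2 and Ankrd1 were below the minimum, with at most 5 counts in any library.

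Clock genes and Krüppel-like factors rose more often than they fell. All called members of the circadian clock list were higher, 14 of 21 measured, with a median of 0.71. Bhlhe41, a repressor of clock genes, stood at 9.38, 8.61 and 10.1 CPM in OMVSSDC and 2.36, 1.85 and 2.84 CPM in PBSDC. Rora, an activator of the core loop, rose from 10.2, 10.3 and 9.84 to 37.1, 35.1 and 47.2 CPM. The log2 fold changes were 1.99 (SE 0.18) and 1.97 (SE 0.12). Nr1d1, the repressor REV-ERB alpha, rose by 1.55, Ciart by 1.62 and the period gene Per1 by 0.53. Clock and Arntl, the pair of activators at the centre of the loop, had log2 fold changes of 0.04 (SE 0.092) and 0.07 (SE 0.13) and did not pass (adjusted p = 0.74 and 0.639). Without OMVSSDC replicate 3 these values turned to -0.07 and -0.10, also not called, and 1 member of the list was then lower. With replicate 3 as the only treated library the values were 0.23 for Clock and 0.36 for Arntl.

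The window before Bhlhe41 is printed because it held an E-box, CACGTG, the site that Clock and Arntl bind (capitals; chr6:145865421-145865670, minus strand, RefSeq on GRCm38.p6), 153 bases before the start.
Bhlhe41: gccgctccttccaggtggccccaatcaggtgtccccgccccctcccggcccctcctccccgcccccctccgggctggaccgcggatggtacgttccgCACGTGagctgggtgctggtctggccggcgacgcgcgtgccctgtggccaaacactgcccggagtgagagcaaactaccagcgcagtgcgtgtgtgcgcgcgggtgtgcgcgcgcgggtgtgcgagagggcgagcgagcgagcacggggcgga

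That motif was in 5 of the 17 clock genes with a window, in 6.86% of all genes with a window and in 10.1% of the genes of the comparison.

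Among nuclear receptors and their cofactors 10 of 27 genes rose and 4 fell (8 lower without OMVSSDC replicate 3), and the share that rose was near that of all genes. Rarg, retinoic acid receptor gamma, stood at 18.9, 15.4 and 13.5 CPM against 3.06, 2.05 and 2.62 CPM, and its log2 fold change was 2.62 (SE 0.18, adjusted p = 9.41e-07). Nr4a1, an orphan receptor induced early after stimulation, rose from 5.35 ± 0.267 to 16.0 ± 0.31 CPM, and the oestrogen receptor gene Esr1 by 1.31. Of 12 Krüppel-like factors 7 rose and 0 fell. Klf4 and Klf9, zinc finger factors of differentiation, rose from 4.47 ± 0.176 to 11.04 ± 1.29 CPM and from 21.0 ± 1.60 to 46.2 ± 12.2 CPM. Klf12 had 10, 14 and 11 counts against 1, 0 and 0, near the limit of measurement in PBSDC. In retinoid metabolism 6 of 9 genes rose and 0 fell. Rdh12 and Rdh14, retinol dehydrogenases, rose by 1.77 and 1.19, and Dhrs3, which turns retinal back into retinol, by 0.67.

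Chromatin genes were mainly lower. Of 39 enzymes of histone lysine methylation 21 fell and 9 rose, with a median of -0.29. Ezh2, the methyltransferase of the Polycomb repressive complex, stood at 62.3, 67.7 and 84.2 CPM against 182, 178 and 177 CPM, with replicate 3 closest to PBSDC. Suz12, its partner subunit, fell by 0.53. Among the genes that rose were demethylases. Kdm7a rose from 69.8, 64.2 and 61.4 to 212, 224 and 272 CPM and Kdm5b from 11.2, 13.3 and 12.5 to 45.1, 41.5 and 41.8 CPM. Kdm6b, which removes the mark that Ezh2 sets, rose by 1.24 (SE 0.11).

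In DNA methylation 10 of 18 genes fell and 3 rose. Dnmt1, the maintenance methyltransferase, fell from 937 ± 29.5 to 441 ± 39.5 CPM and its recruiter Uhrf1 by 1.29. Hells, a chromatin remodeller needed for DNA methylation, stood at 81.6, 86.3 and 146 CPM against 282, 264 and 279 CPM, so replicate 3 fell less, and its log2 fold change of -1.40 was -0.92 with replicate 3 alone. Gadd45a and Gadd45b, stress-response genes also linked to DNA demethylation, rose. Gadd45a stood at 79.8, 78.1 and 71.0 CPM against 11.1, 10.6 and 11.6 CPM, so that the log2 fold change was 2.78 (SE 0.083, adjusted p = 9.26e-09), and Gadd45b rose by 1.77. With replicate 3 alone, 6 genes of the list were higher.

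Messenger RNA decay genes had 9 higher and 12 lower of 37, near the shares of all genes. Hnrnpd, also named AUF1, which binds AU-rich elements and promotes decay, stood at 79.8, 78.0 and 154 CPM against 366, 302 and 357 CPM (log2 fold change -1.72, SE 0.23). Replicate 3 was well above replicates 1 and 2 and still below all PBSDC libraries. Btg1, an adaptor of the deadenylase complex, rose from 41.8 ± 4.86 to 129 ± 13.4 CPM. Zfp36, the decay factor tristetraprolin, rose by 1.01, and its relative Zfp36l2 fell by 1.08. Cnot1, the scaffold of the CCR4-NOT deadenylase, fell by 0.58.

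Nuclear pore and transport genes had the highest share called in one direction among the 35 lists. Of 45 measured genes 40 fell and 2 rose, with a median of -0.58. Ranbp1, a cofactor of the GTPase Ran, stood at 25.3, 25.5 and 33.9 CPM in OMVSSDC and 87.4, 79.9 and 84.9 CPM in PBSDC. Kpna2, an importin alpha that carries cargo into the nucleus, fell from 285, 294 and 275 to 117, 119 and 113 CPM. The log2 fold changes were -1.57 (SE 0.11, adjusted p = 1.43e-06) and -1.29 (SE 0.060, adjusted p = 9.80e-08). Kpnb1, the main importin beta, and Xpo1, the main exportin, fell by 0.75 and 0.78. The pore scaffold gene Nup107 fell from 115 ± 2.88 to 48.6 ± 5.96 CPM.

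Members that rose were Tnpo2, a transportin, by 0.54 (0.28 with replicate 3 alone), and Kpna4. Ran itself stood at 279.6, 272 and 145 CPM against 293, 311 and 305 CPM. Replicates 1 and 2 lay just under PBSDC and replicate 3 far below, and the difference did not pass (-0.38, SE 0.20, adjusted p = 0.115). It passed without OMVSSDC replicate 1 (-0.55, adjusted p = 0.04) and without OMVSSDC replicate 3 (-0.13, adjusted p = 0.0153). With replicate 3 alone the value was -1.07, so most of the fall lay in that library.

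DNA repair genes were lower as well. In homologous recombination and Fanconi repair, which mends double-strand breaks and crosslinks, 20 of 32 genes fell and 1 rose, with a median of -0.71. Eme1, a subunit of a structure-specific nuclease, stood at 12.8, 11.97 and 14.5 CPM against 40.6, 41.5 and 40.4 CPM, and Exo1, an exonuclease that resects DNA ends, at 32.8, 33.6 and 31.8 CPM against 79.2, 79.9 and 82.9 CPM. Replicate 3 lay close to the other treated libraries in both, and the log2 fold changes were -1.64 (SE 0.11) and -1.30 (SE 0.065). Brca1 and Brca2, which act at double-strand breaks, fell by 0.77 and 0.98. Brca2 stood at -0.64 with replicate 3 alone. Rad51d, which also acts in this repair, was the exception with a rise of 0.45, and 4 genes were higher without OMVSSDC replicate 3.

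Mismatch and base excision repair had 12 genes lower and 5 higher of 22. Lig1, the ligase that joins Okazaki fragments, fell from 268 ± 8.32 to 128 ± 4.93 CPM (log2 fold change -1.06, SE 0.059). Parp1, a sensor of strand breaks, fell by 0.97. Neil1, a DNA glycosylase, rose from 7.42, 6.71 and 7.65 to 21.5, 20.9 and 13.4 CPM, with replicate 3 between PBSDC and the other treated libraries (0.88 with replicate 3 alone against 1.36).

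Windows before Ranbp1 and Hells are printed because each held an E2F-like motif, TTTNNCGC, the kind of site bound by E2F factors of the cell cycle. Capitals mark the match, 37 bases before the start of Ranbp1 (chr16:18248695-18248944, minus strand) and 62 before that of Hells (chr19:38930740-38930989, plus strand), from RefSeq on GRCm38.p6.
Ranbp1: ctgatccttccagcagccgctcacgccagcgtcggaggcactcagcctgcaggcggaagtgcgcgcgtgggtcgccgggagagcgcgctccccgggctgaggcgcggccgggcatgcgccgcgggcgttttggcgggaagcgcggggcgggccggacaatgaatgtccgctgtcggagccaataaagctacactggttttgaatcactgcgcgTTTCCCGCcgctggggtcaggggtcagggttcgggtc
Hells: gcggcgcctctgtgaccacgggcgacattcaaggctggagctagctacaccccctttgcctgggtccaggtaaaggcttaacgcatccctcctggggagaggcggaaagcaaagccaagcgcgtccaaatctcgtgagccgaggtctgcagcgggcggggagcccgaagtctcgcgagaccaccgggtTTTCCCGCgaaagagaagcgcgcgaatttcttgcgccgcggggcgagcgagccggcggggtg

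The motif, searched on both strands, was in 3 of 37 nuclear transport genes and 4 of 23 recombination genes with a window, in 4.94% of all genes with a window and in 8.54% of those of the comparison. Shares of so few windows are a description, and nothing follows from a window without a match.

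**Figure D3:**
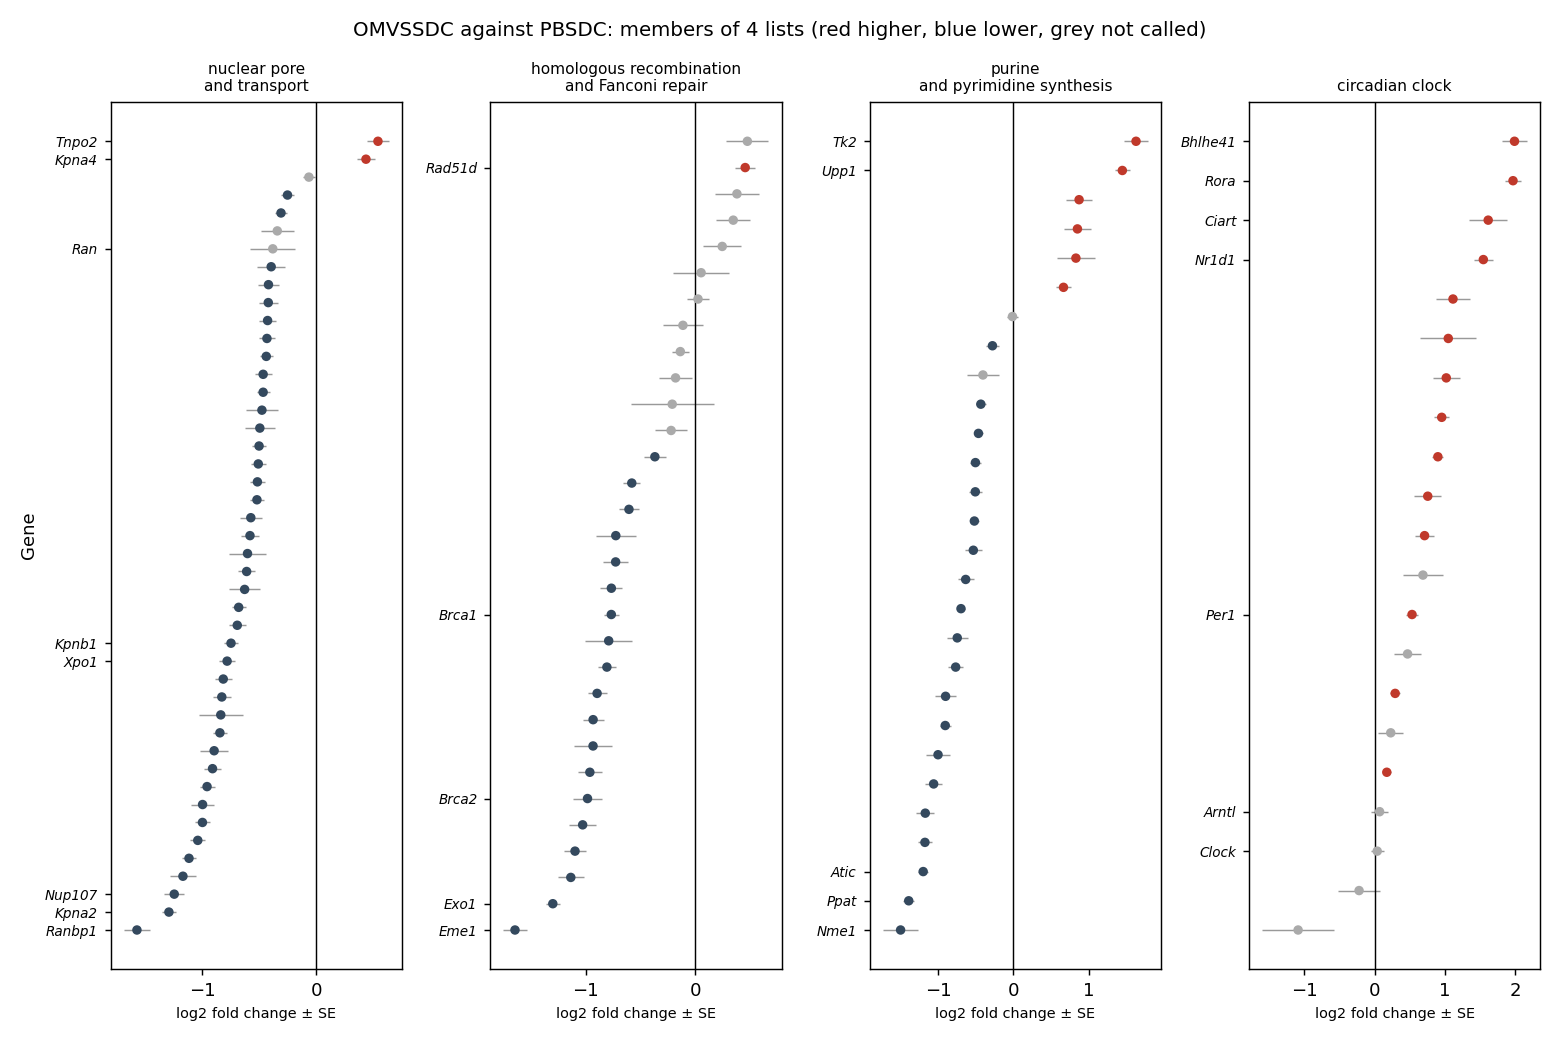
Points show the log2 fold change of OMVSSDC against PBSDC with its standard error for the measured members of 4 lists that are reported here, red when called higher, dark blue when called lower and grey when not called, labelled where the text names the gene. Nuclear transport, recombination and nucleotide synthesis genes lie mostly left of 0, with Ranbp1, Eme1 and Nme1 lowest, and called clock genes lie right of 0.

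Nucleotide synthesis genes were mainly lower. Of 28 genes of purine and pyrimidine synthesis 20 fell and 6 rose, with a median of -0.52. Ppat, which commits precursors to purine synthesis, fell from 107 ± 2.47 to 40.8 ± 2.25 CPM and Atic, which completes the purine ring, by 1.20. Nme1, a nucleoside diphosphate kinase, stood at 5.27, 4.70 and 2.30 CPM against 11.9, 11.7 and 11.1 CPM, with replicate 3 lowest (-2.33 with replicate 3 alone against -1.496). Among the members that rose, Tk2, the mitochondrial thymidine kinase, went from 17.5, 14.8 and 15.5 to 53.7, 56.7 and 37.1 CPM, and Upp1, uridine phosphorylase, rose by 1.44. Amd1, given below, and Nme1 have near-identical copies or close relatives in the genome, so their counts are uncertain.

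In serine and folate metabolism 13 of 23 genes fell and 3 rose. Mat2a, which makes the methyl donor S-adenosylmethionine, stood at 97.7, 97.2 and 109 CPM against 288, 300.2 and 278 CPM (log2 fold change -1.51, SE 0.067, adjusted p = 8.20e-08). Mthfd1l, a mitochondrial folate enzyme, fell by 1.30, Shmt2, which moves carbon from serine to folate, by 1.01 and thymidylate synthase, Tyms, by 0.93.

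Polyamine and arginine genes changed in both directions, with 9 higher and 7 lower of 22, not far from the 33.6% and 30.3% of all genes. Sat1, which acetylates polyamines for export or breakdown, stood at 181, 177 and 118 CPM against 31.4, 37.2 and 34.0 CPM. Slc7a2, an arginine transporter, rose from 30.0, 28.6 and 28.8 to 128, 129.5 and 149.5 CPM, and Pycr1, which makes proline, by 1.53. Their log2 fold changes were 2.22 for Sat1 and 2.22 for Slc7a2 (SE 0.15 and 0.085). Amd1 and Srm build polyamines. Amd1 fell from 122 ± 4.94 to 51.1 ± 1.19 CPM and spermidine synthase, Srm, by 1.12. Odc1, the first enzyme of the route, had -0.11 (SE 0.096, adjusted p = 0.329), and was called lower without OMVSSDC replicate 3 (-0.24). It had 0.01 when libraries were scaled by their totals alone. With replicate 3 as the only treated library, 5 genes of the list were higher.

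The pentose phosphate and NADPH list was even, 5 higher and 5 lower of 16, near the shares of all genes. Without OMVSSDC replicate 2 or PBSDC replicate 2, 3 were higher. Me2, the mitochondrial malic enzyme, fell from 142 ± 4.15 to 54.8 ± 1.08 CPM and Shpk, sedoheptulokinase, rose by 1.33. Cytosolic transfer RNA synthetases had 6 higher and 9 lower of 21, with 10 higher without OMVSSDC replicate 3. Hars and Farsb, which charge the histidine and phenylalanine transfer RNAs, fell by 0.88 and 0.79. Wars, the tryptophan enzyme that interferon is known to induce, rose from 155 ± 4.62 to 267 ± 27.1 CPM, and Eprs by 0.42.

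Genes of lipid storage changed in both directions. Of 28 lipid droplet and glycerolipid genes 10 rose and 9 fell, near the 33.6% and 30.3% of all genes, with a median of 0.01. Hilpda, a droplet protein that blocks the lipase Atgl, stood at 85.3, 86.5 and 72.1 CPM against 11.8, 13.3 and 14.4 CPM (log2 fold change 2.63, SE 0.10, adjusted p = 4.02e-08). Dgat2, which makes triglyceride, rose from 5.06, 5.41 and 3.86 to 24.8, 27.2 and 19.2 CPM. Plin2, a droplet coat protein, rose by 0.97 and Gpat3, an acyltransferase of the same route, by 1.61. Hormone-sensitive lipase, Lipe, fell by 1.02 and the lysophospholipid acyltransferase Mboat1 by 1.60.

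Fatty acid oxidation and peroxisome genes had 17 higher and 7 lower of 39, but 9 higher with replicate 3 as the only treated library. Acaa1a, a peroxisomal thiolase, stood at 66.9, 66.3 and 30.5 CPM against 18.5, 18.1 and 18.3 CPM. Replicate 3 was far below replicates 1 and 2 and above PBSDC, and the log2 fold change of 1.58 was 0.73 with it alone. Pex6, a peroxisome assembly factor, followed the same order (1.18 against 0.69). Cpt1c rose by 1.28 and Cat, catalase, by 0.84.

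Sphingolipid genes were 13 higher and 8 lower of 29. Smpd4, a neutral sphingomyelinase, fell from 93.2 ± 7.06 to 35.9 ± 4.86 CPM, and Asah2, a ceramidase, rose from 19.4, 18.1 and 15.8 to 37.2, 39.2 and 57.6 CPM. Sphk2, which makes sphingosine 1-phosphate, rose by 1.28. Its receptor gene S1pr2 rose by 0.96 (0.45 with replicate 3 alone), whereas S1pr1, the receptor for exit from lymph nodes, fell by 0.35 and did not pass with replicate 3 alone (-0.16).

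Kynurenine and NAD genes rose in 8 of 15 cases and fell in 1. Nmnat3 and Nampt, which make NAD, rose by 1.55 and 0.43. Kynu, kynureninase of tryptophan breakdown, rose from 7.89, 5.68 and 6.63 to 14.1, 15.4 and 19.8 CPM. The member that fell was Sirt1, a deacetylase that consumes NAD, from 40.7 ± 1.48 to 21.9 ± 3.66 CPM. In zinc and copper handling 14 of 25 genes rose and 4 fell. Mt1, the metal-binding metallothionein, stood at 78.9, 76.0 and 139 CPM against 196, 180.0 and 173 CPM, lower in all treated libraries but least in replicate 3 (-0.41 alone against -0.91). Slc39a14, a zinc importer, rose by 0.68 (0.40 with replicate 3 alone). The zinc transporter gene Slc39a3 rose by 1.30, but with replicate 3 alone it stood at 0.39 and did not pass. Slc31a2, a copper transporter, rose by 1.27 (0.72 with replicate 3 alone).

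Complement genes were mainly lower. The classical pathway starts with C1q, built from C1qa, C1qb and C1qc, which lie next to each other on chromosome 4 in the deposited table (136607440 to 136626114, build not given in the sources used here). Of 15 measured complement genes 9 fell and 3 rose. C1qb stood at 104, 107 and 124 CPM in OMVSSDC and 471, 451 and 473 CPM in PBSDC, and C1qc at 107, 104 and 95.4 and 314, 327 and 342 CPM. All treated libraries were far below all PBSDC libraries, with log2 fold changes of -2.06 (SE 0.080, adjusted p = 4.24e-08) and -1.68 (SE 0.081, adjusted p = 1.26e-07). C1qa fell by 1.17. Receptors for the complement fragments C5a and C3a, C5ar1 and C3ar1, fell by 1.34 and 0.75. C3, the central component, rose from 280.2, 299 and 291 to 647, 615 and 684 CPM.

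In coagulation and fibrinolysis 10 of 15 genes rose and 0 fell, and 6 were higher with replicate 3 as the only treated library. Procr, the endothelial protein C receptor, stood at 346, 324 and 388 CPM against 58.2, 60.7 and 56.3 CPM, and the log2 fold change reached 2.59 (SE 0.080, adjusted p = 1.04e-08). Anxa5, which binds exposed phosphatidylserine, rose by 1.12.

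Among death receptors, caspases and necroptosis genes 13 of 26 rose and 6 fell. Ninj1, which ruptures the membrane of dying cells, stood at 248, 243 and 232 CPM against 68.3, 61.5 and 60.1 CPM. Zbp1, a sensor of Z-form nucleic acids, rose from 40.6, 41.7 and 50.7 to 122, 115 and 135 CPM. The log2 fold changes were 1.93 (SE 0.069) and 1.48 (SE 0.096). Casp4, the mouse caspase-11 that senses lipopolysaccharide in the cytosol, rose by 1.38. Cflar, an inhibitor of caspase-8, rose from 233 ± 22.0 to 624 ± 63.3 CPM. Ripk1, a kinase of death receptor signalling, and Casp8 fell by 0.72 and 0.30.

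Membrane fusion genes were mainly higher. Of 37 SNARE proteins, synaptotagmins and their regulators 21 rose and 4 fell, or 7 lower without OMVSSDC replicate 3 and 2 without PBSDC replicate 3. Stx11, a syntaxin of granule release, stood at 19.4, 16.6 and 17.95 CPM against 5.77, 5.20 and 6.93 CPM. Unc13d, which acts in the same process, rose by 1.41. Syt11, a synaptotagmin, fell from 56.0, 56.0 and 52.3 to 17.8, 18.3 and 17.6 CPM (log2 fold change -1.61, SE 0.075, adjusted p = 9.83e-08), and Nsf, the ATPase that recycles SNAREs, by 1.11. Coat proteins of early secretion had 11 higher and 17 lower of 46. The higher count was 7 without OMVSSDC replicate 1, OMVSSDC replicate 2 or PBSDC replicate 1, and 17 without OMVSSDC replicate 3. Sec24d, a cargo adaptor of COPII, rose by 0.85 and Sec23ip fell by 0.85.

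Matrix genes rose in 11 of 20 cases and fell in 1 (5 without OMVSSDC replicate 3). Agrn, the heparan sulphate proteoglycan agrin, stood at 47.1, 43.1 and 33.9 CPM against 7.24, 6.57 and 6.85 CPM. Spp1, the secreted phosphoprotein osteopontin, rose from 166, 171 and 165 to 545, 546 and 569.8 CPM, with very little spread (log2 fold change 1.73, SE 0.058, adjusted p = 1.68e-08). Lamc1, a laminin chain, rose by 0.996 and Col4a1, a basement membrane collagen, by 2.83 from 1.02 ± 0.392 CPM. Junction and cadherin genes had 9 higher and 5 lower of 17. Pecam1, an adhesion molecule of endothelium and leukocytes, stood at 2.38, 3.47 and 5.89 CPM against 15.4, 14.9 and 15.5 CPM, and Cdh5 fell by 1.41. Nectin2, a ligand of lymphocyte receptors, rose by 0.87. Of 8 ephrin and Eph receptor genes 3 rose, among them Epha2 by 1.18, which did not pass with replicate 3 alone (0.88), and 0 fell, or 1 without PBSDC replicate 1.

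Genes used as markers of other cell types moved with some of these lists. Their counts do not show that such cells were present. The 15 fibroblast and endothelial markers, to which Pecam1 and Cdh5 belong, had sums of 15.6, 14.8 and 35.5 CPM in the OMVSSDC libraries, so that replicate 3 was high, and of 28.5 to 33.2 CPM in PBSDC. The collagen genes among them, which also count in the matrix list, set replicate 3 apart: Col1a1, Col1a2 and Col3a1 had at most 3 counts in replicates 1 and 2, 52 to 99 in replicate 3 and 14 to 54 in PBSDC. The 20 heart, muscle and brain markers summed to 33.6 to 54.9 CPM in OMVSSDC and 70.3 to 77.3 CPM in PBSDC, with 1 of them at 0 throughout. The 15 lymphoid markers summed to 15.3 to 21.3 CPM against 9.31 to 11.4 CPM, with 8 of them at 0 and only 2 that passed the minimum of counts. The 15 epithelial markers had sums of 1.07 to 4.15 CPM, with 2 of them at 0. Globin genes gave 55 counts of Hba-a1 and 45 of Hbb-bs in OMVSSDC replicate 1 and at most 2 elsewhere. The 17 granulocyte and erythroid markers had sums of 13.9 CPM in that library and 0.715 to 2.65 CPM in the others. The source of these counts and their part in the lists were not tested.

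OMVSSDC replicate 3 was examined gene by gene beside replicates 1 and 2. Of the 3847 genes called higher, 3765 were above the PBSDC mean in replicate 3 too, and of the 3468 called lower 3458 were below it. Its change was smaller than in both other libraries for 2127 higher and 2000 lower genes, and larger than in both for 1289 and 1129. Median differences from PBSDC in the genes called higher were 0.80, 0.80 and 0.66 in replicates 1, 2 and 3, and in those called lower -0.67, -0.67 and -0.57. With replicate 3 as the only OMVSSDC library, in a fit that takes the spread from the other groups, 3632 genes were higher and 3695 lower, and 101 of the genes called with all libraries had the other sign.

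Many of the genes that set replicate 3 apart were short or mitochondrially encoded. In total 80 genes stood over 2-fold above both other treated libraries, 9 of them mitochondrially encoded, out of 12 in the comparison. Another 189 stood over 2-fold below both, with 20 of the 80 cytoplasmic ribosomal protein genes among them. The genes below had a median length of 2070 bases and those above 3580 bases, against 4546 bases over all genes. Over 4 equal groups of genes by length, the median difference of replicate 3 from the mean of replicates 1 and 2 rose from -0.19 in the shortest (255 to 2888 bases) to -0.06, 0.03 and 0.16 in the longest (6936 to 123179 bases). Median differences from PBSDC ran from 0.20 and 0.19 in the shortest group to -0.05 and -0.05 in the longest in replicates 1 and 2. In replicate 3 they ran from -0.04 to 0.09. The median log2 fold change with all libraries ran from 0.14 to -0.01, so length went with the values of replicates 1 and 2 too. Mitochondrially encoded genes took 1.81% and 1.86% of counts in replicates 1 and 2, 4.44% in replicate 3 and 6.89% to 7.84% in PBSDC. Gene length was not tested as a cause of these differences.

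Called genes in which replicate 3 was farthest above the others were mt-Nd6, mt-Nd5, mt-Nd4, Ppig, Nsrp1 and Mphosph8. The mt-Nd genes encode subunits of respiratory complex I, and mt-Nd5 stood at 1269, 1327 and 4805 CPM against 12524, 11625 and 10543 CPM. Its log2 fold change was -2.23 with all libraries, -3.16 without OMVSSDC replicate 3 and -1.27 with it alone. For mt-Nd4 the levels were 449, 451 and 1185 against 6125, 5416 and 5450.3 CPM (-3.03 in log2 fold change, -3.65 without OMVSSDC replicate 3 and -2.26 with it alone), so every treated library lay far below PBSDC. In mt-Nd6, which lies on the other strand of the mitochondrial genome, the value was -2.20, -3.35 without OMVSSDC replicate 3 and -1.14 with it alone. Strand use in the counting is not stated. Ppig, a cyclophilin of splicing speckles, showed another pattern, with 132, 145 and 359.8 CPM against 413, 373 and 372 CPM. There replicate 3 lay beside PBSDC and only replicates 1 and 2 were low, and the log2 fold change was -0.86 (SE 0.32, adjusted p = 0.0354). Nsrp1, a splicing regulator, and Mphosph8, a reader of repressive chromatin, did likewise, at 60.9 and 66.0 CPM in replicate 3 against PBSDC means of 66.1 ± 3.28 and 69.4 ± 8.14 CPM. Their log2 fold changes were -0.87 and -0.80 (SE 0.31 and 0.31). Their calls and that of Ppig were lost without any 1 of OMVSSDC replicates 1 and 2 and the 3 PBSDC libraries, while without OMVSSDC replicate 3 their values were -1.48, -1.38 and -1.48.

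Farthest below were Cdkn2d, Atp5e, Tspo, Rps29, Tmem205 and Rps16. Tspo, a protein of the outer mitochondrial membrane, stood at 288, 281 and 84.5 CPM against 34.9, 33.0 and 35.1 CPM, so replicate 3 was far below the other treated libraries yet above PBSDC. Tmem205 had the same order, with 60.5, 59.0 and 18.9 against 9.54, 9.99 and 10.4 CPM. The log2 fold changes of Tspo and Tmem205 were 2.67 and 2.21, and 1.29 and 0.92 with replicate 3 alone. Cdkn2d, the cell cycle inhibitor p19, stood at 50.8, 50.2 and 14.6 CPM against 16.4, 14.3 and 17.6 CPM. In Cdkn2d, in Atp5e, a subunit of ATP synthase, and in the ribosomal protein genes Rps16 and Rps29, replicate 3 lay within or next to the PBSDC libraries. Atp5e had 87.8, 83.2 and 24.5 CPM against 23.1, 26.3 and 24.0 CPM, and Rps16 529, 521 and 174 CPM against 189, 184 and 196 CPM. For Cdkn2d, Atp5e, Rps16 and Rps29 the log2 fold changes were 1.26, 1.41, 1.11 and 1.46. With replicate 3 alone they were -0.15, -0.0017, -0.13 and 0.09. The call of Cdkn2d was lost without OMVSSDC replicate 1 (adjusted p = 0.0538), OMVSSDC replicate 2 (0.0599) or PBSDC replicate 2 (0.0568). That of Rps16 was lost without OMVSSDC replicate 1 (0.0511) or 2 (0.0539). Ribosomal protein genes and Atp5e have near-identical copies in the genome, so their counts are uncertain.

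**Figure D4:**
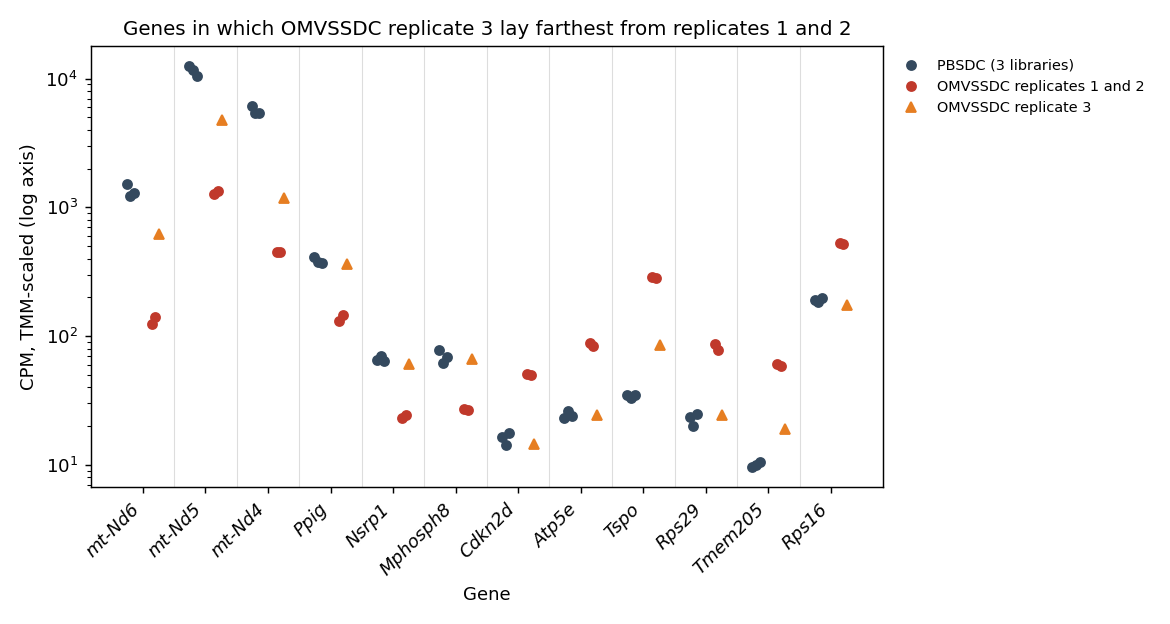
Points give CPM on a log axis for each library of the 12 genes in which OMVSSDC replicate 3 was farthest from replicates 1 and 2, with PBSDC in dark blue, replicates 1 and 2 in red and replicate 3 as an orange triangle. Replicate 3 lies among or next to PBSDC for Ppig, Nsrp1, Mphosph8, Cdkn2d, Atp5e, Rps29 and Rps16, and between the groups for the others.

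List medians were close in all 3 treated libraries for some lists and not for others. For nuclear pore and transport genes the medians of the difference from PBSDC were -0.61, -0.61 and -0.62 in replicates 1, 2 and 3, for recombination genes -0.66, -0.64 and -0.57, and for clock genes 0.70, 0.74 and 0.62. Complement was as close, at -0.54, -0.50 and -0.53. In serine and folate metabolism replicate 3 was lower, at -0.68 against -0.27 and -0.30. In polyamine and arginine metabolism it had the other sign, at -0.07 against 0.50 and 0.49, and fatty acid oxidation genes stood at 0.01 against 0.38 and 0.38. For Hippo genes it was 0.13 against -0.10 and -0.06, and for the pentose phosphate list -0.11 against 0.11 and 0.05. Coat proteins of early secretion stood at -0.14 against 0.01 and 0.01. Purine receptor and messenger RNA decay lists were at 0.00 in replicate 3, against -0.30 and -0.28 for the first and -0.13 and -0.12 for the other.

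**Figure D5:**
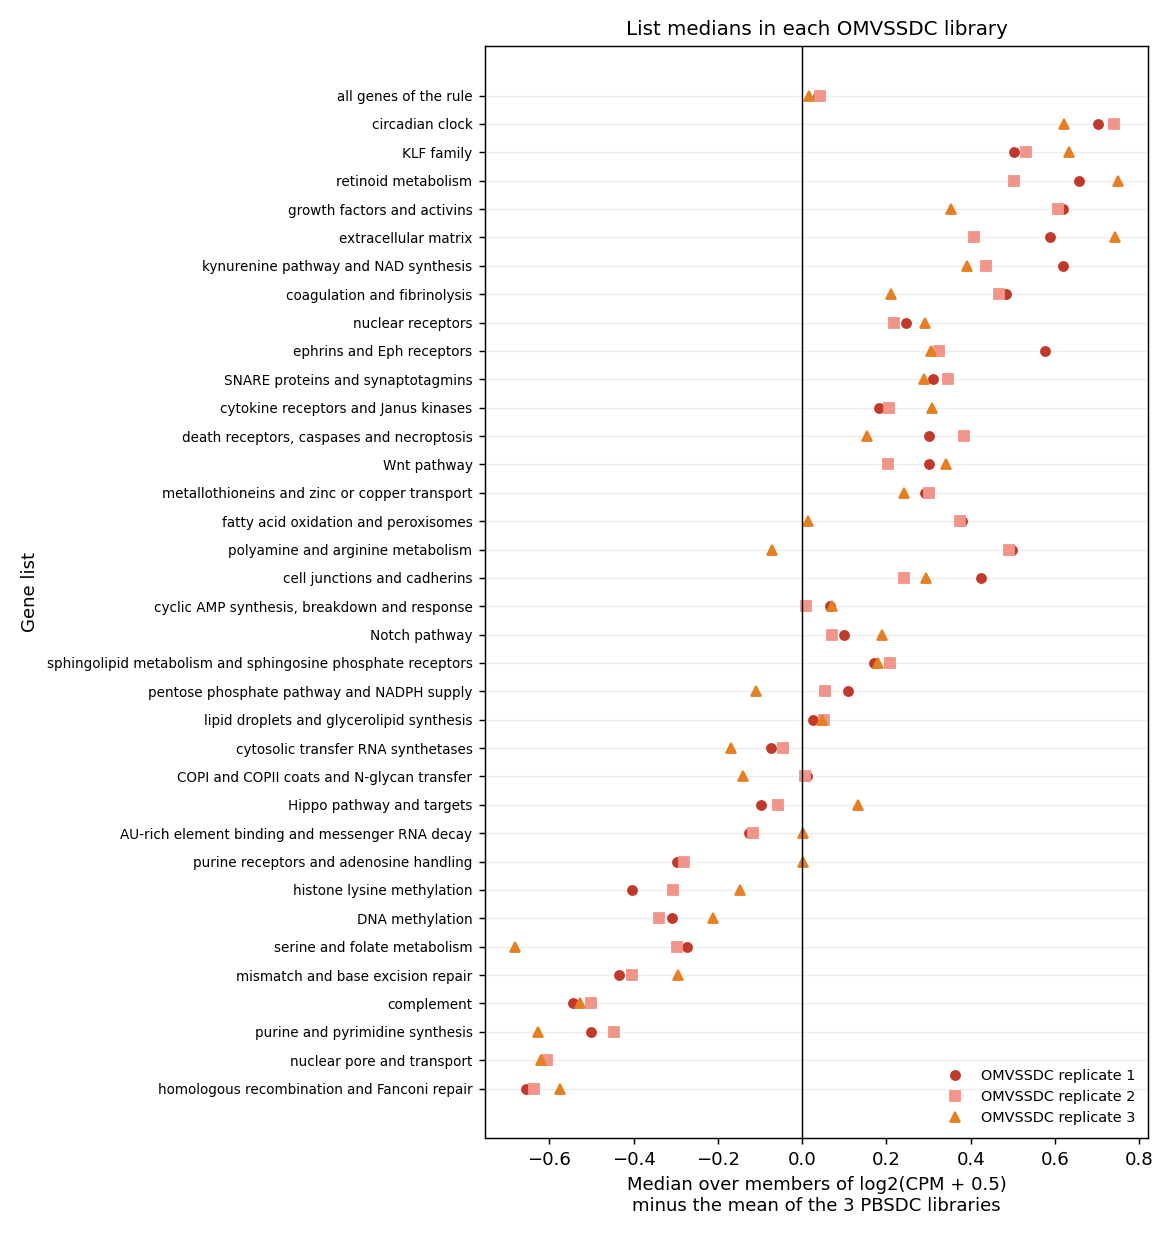
Each row is a gene list, and the symbols give, for OMVSSDC replicates 1 (circle), 2 (square) and 3 (triangle), the median over members of log2(CPM + 0.5) minus the mean of the 3 PBSDC libraries. Replicate 3 lies with the other libraries for nuclear transport, recombination and complement, and to the other side of 0 for the polyamine, Hippo, pentose phosphate and coat protein lists, with the purine receptor and decay lists at about 0 in replicate 3.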

How the data were processed

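Total RNA of DC2.4 cells was sequenced in 9 libraries, 3 in each group. Per the submitters' processing notes, the authors used fastp 0.22.0, HISAT2 2.1.0 and HTSeq 0.9.1, and the deposited table holds read counts per gene, with gene positions and lengths. It also holds FPKM values made by the authors, which equalled count over length and library total for all values within a relative tolerance of 0.001, so they add no information and were not analysed further. No source used here gives the genome build, annotation or strand setting.

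The groups were taken from the sample labels. Genes with 10 or more counts in at least 3 of the 6 libraries were tested in edgeR 4.0.16 (R 4.3.3) with TMM scaling and the robust quasi-likelihood test, fitted on all 9 libraries by group with 6 residual degrees of freedom, two-sided. P-values were adjusted by Benjamini and Hochberg over 11440 genes, and an adjusted p under 0.05 was called. Fold changes are OMVSSDC over PBSDC on the log2 scale. Totals of 13037337 to 17770675 counts set the counting precision. Lists were described by counts and medians.

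The members and lists were chosen with earlier results of these data known. Named genes were, for each list, the 2 called members with the largest change and 1 in the other direction. These had a mean of at least 5 CPM and groups that did not overlap. The 8 largest rises and falls over all genes met the same limits and had an established symbol. The last were 6 genes in each direction where OMVSSDC replicate 3 was farthest from the nearer of replicates 1 and 2 (at least 20 CPM). Genes already described from these data were passed over. A further 71 genes were examined as examples with their values known. Some of these genes are not reported here. Alternatives were other scalings and filters, DESeq2 1.42.0, limma-voom (limma 3.58.1), a fold threshold of 1.5, a gene length correction, a replicate block, only the 6 libraries, each library left out in turn and replicate 3 as the only OMVSSDC library. Scripts were tested on simulated data.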

Additional observations from a re-analysis of the deposited data

How the results depend on the processing

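Counts of called genes stayed within 1.5 times those of the main fit under every alternative run except a test against a fold of 1.5, which called 1661 genes higher and 1175 lower. Leaving out 1 library gave 3363 to 4526 genes higher and 3129 to 4174 lower. A replicate block gave 3575 higher and 3282 lower. In their deviations from group means, same-numbered libraries correlated at -0.12, 0.06 and -0.08, and not every library correlated best with its own number. In OMVSSDC these deviations mainly reflect how replicate 3 stands apart. They cannot decide whether the replicate numbers pair the libraries. Scaling by library totals alone moved the median over all genes to 0.17 from 0.04, and the changes here are relative to the main scaling.

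With OMVSSDC replicate 3 as the only treated library the sign turned for Cdkn2d (-0.15), Atp5e (-0.0017), Rps16 (-0.13) and Odc1 (0.11), and in the first 3 of these replicates 1 and 2 alone stood above the PBSDC libraries. Odc1 also turned with library totals alone (0.0077). Leaving out 1 library gave Clock -0.074 to 0.086 and Arntl -0.10 to 0.14, none of them called. With replicate 3 alone the values were 0.23 and 0.36. Of the 185 genes examined singly, 185 kept direction and call under DESeq2, DESeq2's scaling and edgeR's own filter, 184 under limma-voom, the block and the length correction, 171 with replicate 3 alone and 159 against the fold of 1.5. With 50 counts required, 177 were tested and 177 kept theirs. The cause of the other changes was not tested. Depth limits genes near 3 counts in PBSDC, such as Inhba, Fzd4 and Klf12, whose fitted fold changes depend on the prior count.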
